A study of Mus musculus with 18 samples.

Results

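The subject is the difference between a pair of knockout effects in mouse alveolar macrophages: the effect of deleting Vhl and Hif2a together, minus the effect of deleting Vhl, Hif1a and Hif2a together, for every autosomal gene tested. The libraries were chosen by genotype label, 3 per group and 12 of the 18 in the series, and 12471 autosomal genes of the 12900 tested carry the result. The knockout side of each cross is labelled with CD11c-Cre, a recombinase driven by the promoter of the CD11c gene Itgax, and a knockout of Vhl and Hif2 or of Vhl, Hif1 and Hif2. The other side of each cross is labelled as a control with conditional (flox-flox) alleles, of Vhl and Hif2a in the first cross and of the same 3 genes in the second, and whether these controls carried Cre is not given in the sources used here. The groups are called Vhl/Hif2a knockout, Vhl/Hif2a control, triple knockout and triple control. No age, strain, sex or treatment is labelled. Cells came from the lavage fluid of the airspaces and were enriched on beads against CD11c, and nothing in the labels says whether the replicates were separate animals or pools, so p-values measure the spread between these libraries.

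Hypoxia-inducible factors (HIFs) are held down by Vhl, which tags their alpha subunits for destruction when oxygen and active prolyl hydroxylases are present. HIF-1α, the product of Hif1a, and HIF-2α, the product of Epas1 (the Hif2a of the labels), then act without hypoxia in cells that have lost Vhl. Both bind a short DNA core in the control regions of their targets, and HIF-1α is best known for raising glycolysis and mitophagy genes. Alveolar macrophages live in oxygen-rich airspaces, take up surfactant lipid and rely on mitochondrial metabolism. The design asks which RNA changes of the Vhl/Hif2a knockout were absent or different when Hif1a was deleted as well.

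The 12 libraries held 19230000 to 34015000 counts each. The summed level of 14 alveolar macrophage markers was 36200 to 38900 CPM (counts scaled to a common library size by TMM) in the Vhl/Hif2a knockout, 27300 to 31200 in its control, 35500 to 36000 in the triple knockout and 24700 to 32300 in its control. T cell, natural killer cell, eosinophil and mast cell markers were too low to be tested. Triple control 2 stood apart: on the second principal component it lay at 54.55, while the other 11 libraries lay between -18.05 and 9.35. Some counts and named genes that move with it are given with and without it. Other gene list counts moved too, such as glycolysis from 15 called genes to 14 without it and lipid handling from 9 to 10. The crosses also differed in sex-linked RNA. All 6 libraries of the Vhl/Hif2a cross had 7192 to 23988 counts of Xist, expressed from the inactive X chromosome of females, and 0 to 4 counts of 4 Y-linked genes together. All 6 libraries of the triple cross had 6 to 11 counts of Xist and 2758 to 7801 counts of the same Y-linked genes. Sex and cross therefore cannot be told apart. Each knockout was set against its own control within a cross, so the difference of effects cannot be separated from a difference in how the sexes respond.

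Vhl RNA was low in both knockouts. Vhl (chromosome 6, 113623959 to 113631633, GRCm38) had 1.92, 2.48 and 2.36 CPM in the Vhl/Hif2a knockout, against 17.5, 20.1 and 18.6 CPM in its control. It had 1.96, 2.1 and 2.53 CPM in the triple knockout, against 12.3, 12.2 and 14.3 CPM in its control. Both knockouts lay below all of their controls, at 12% and 17% of the control mean, and an exact two-sided permutation test gave p = 0.1 for each, the smallest value 3 against 3 libraries allow. The effects on Vhl were not called different (log2 -0.49 ± 0.22, adjusted p = 0.18 in edgeR's quasi-likelihood test).

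Hif1a RNA, by contrast, moved in the cross where it was not targeted. Hif1a (chromosome 12) had 58.7, 78.6 and 61.6 CPM in the libraries labelled Vhl/Hif2a knockout, against 242, 179 and 231 CPM in their controls. It had 236, 241 and 239 CPM in the triple knockout, against 251, 137 and 238 CPM in the triple control. The Vhl/Hif2a knockout lay below all 9 other libraries, and the difference of effects was -1.90 ± 0.25 on the log2 scale (SE, n = 3 libraries per group, adjusted p = 1.1e-04 in edgeR). Epas1 (chromosome 17) had 48, 56.1 and 58.6 CPM in the libraries labelled Vhl/Hif2a knockout, against 35.1, 23.2 and 24.7 CPM in their controls. It had 38.4, 30.6 and 33.7 CPM in the triple knockout, against 37.2, 51.4 and 32.6 CPM in the triple control. The Epas1 difference was 1.21 ± 0.27 (edgeR, adjusted p = 0.009), and it was called without triple control 2, the highest of its group, as well (adjusted p = 0.016). The Epas1 mean was 196% of the control mean in the Vhl/Hif2a knockout and 84.7% in the triple knockout, where the effect was not called (log2 -0.24, adjusted p = 0.51 in edgeR). Counts over a whole gene do not check the loss of an exon or of protein, and exon-level values were not used here, so the direction of every result below follows the labels.

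The effects differed for 1001 autosomal genes at an edgeR adjusted p under 0.05, which is 8.03% of those tested. Of these, 620 (4.97%) had the more positive effect in the Vhl/Hif2a cross and 381 (3.06%) the more negative one; they are called higher and lower below, and every difference is Vhl/Hif2a effect minus triple effect. Among the 620 the median Vhl/Hif2a effect was 0.91 and the median triple effect -0.20 on the log2 scale, and among the 381 the medians were -0.71 and 0.11. Over all 12471 genes the medians were 0.00 and -0.02. The Vhl/Hif2a effect itself was called in the direction of the difference for 556 of the 620 and for 349 of the 381, and against it for 1 of the 381, Plcb4. Over the whole table the Vhl/Hif2a effect was called for 1839 genes (14.7%), 956 higher (7.67%) and 883 lower (7.08%). The triple effect was called for 5 (0.0401%), 4 higher (0.0321%) and 1 lower (0.00802%), or 1449 at an unadjusted p under 0.05. That unadjusted count was 330 without triple control 2, 2892 without triple control 1, 3216 without triple control 3, 666 without triple knockout 1 and 823 without triple knockout 3. The triple effect was larger in size than the Vhl/Hif2a effect for 59 of the 1001. Without triple control 2, 1089 genes were called, 609 higher and 480 lower, and 887 of the 1001 were among them, including 45 of those 59.

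**Figure D1:**
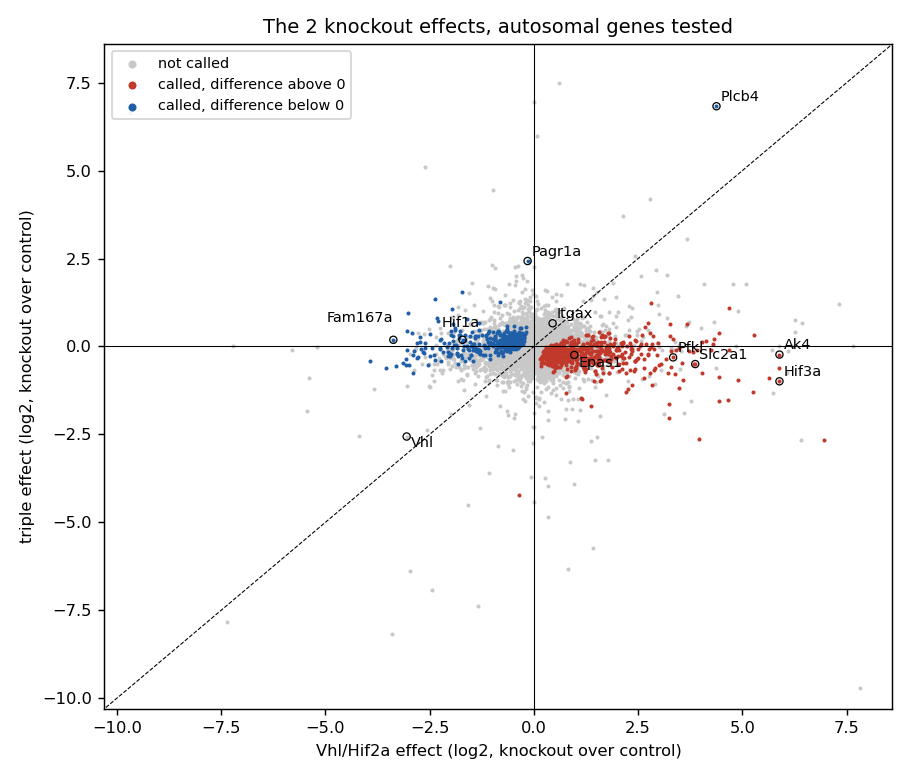
Each point is an autosomal gene, with the Vhl/Hif2a effect on the horizontal axis and the triple effect on the vertical axis, both as log2 of knockout over control. The dashed line marks equal effects, red points are the 620 genes called higher and blue points the 381 called lower; most spread along the horizontal axis, while Vhl lies near the dashed line and Plcb4 and Pagr1a lie high.

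Across all 12471 genes the effects had a Pearson r of -0.03, which describes genes that are not independent of each other. The knockouts compared directly differed for 2408 genes (19.3%), 1329 higher in the Vhl/Hif2a knockout (10.7%) and 1079 lower (8.65%), and 532 of the 620 and 323 of the 381 differed there in the same direction. The controls compared directly differed for 423 genes (3.39%), 230 higher in the Vhl/Hif2a control than in the triple control (1.84%) and 193 lower (1.55%). Among the 620 genes called higher, 19 were higher and 40 lower in the Vhl/Hif2a control, and among the 381 called lower, 27 were higher and 9 lower. The 3 Vhl/Hif2a knockout libraries lay above all 9 others for 1085 autosomal genes (8.7%) and below them for 934 (7.49%).

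Many genes of glucose uptake and glycolysis rose in the Vhl/Hif2a cross, and none was called in the triple cross. The gene lists here and below were chosen with earlier results of these data known, so their called shares are descriptions and not tests. Over all autosomal genes 8.03% were called, 4.97% higher and 3.06% lower. Of 23 autosomal members tested, 15 were called higher and 0 lower, with a median difference of 1.73 against 0.01 over all genes. In 14 of the 15 the Vhl/Hif2a knockout lay above all 9 other libraries, and in 14 of the 15 the triple effect was below 0, though none of these triple effects passed the test. The calls rest on these same libraries, so the separation is a description and not added support. Slc2a1, the GLUT1 glucose transporter, had 351, 381 and 386 CPM in the Vhl/Hif2a knockout, against 35.3, 21.2 and 20.4 CPM in its control. It had 16.7, 15.7 and 17.4 CPM in the triple knockout, against 23.2, 29.2 and 18.1 CPM in its control. The difference of effects was 4.37 ± 0.27 (SE, n = 3 per group, adjusted p = 1.3e-08 in edgeR).

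At least 1 gene was called higher for each step shown here, while the isoform genes Hk3 (0.28 ± 0.18), Pfkm (0.52 ± 0.41) and Pgam2 (0.18 ± 0.53) were not called. Hk1 and Hk2, the hexokinases that trap glucose in the cell, had differences of 2.52 ± 0.17 and 2.29 ± 0.15, and Gpi1, the next enzyme, of 2.09 ± 0.13. Pfkl, the liver-type phosphofructokinase, had 464, 488 and 468 CPM in the Vhl/Hif2a knockout, against 57.8, 42.1 and 40 CPM in its control. It had 54.3, 60.6 and 61 CPM in the triple knockout, against 63.6, 88.8 and 65.9 CPM in its control. The Pfkl difference was 3.66 ± 0.20, but its controls also differed, the Vhl/Hif2a control being lower (log2 -0.64, adjusted p = 0.018 in edgeR). Aldoa and Aldoc, the aldolases that split fructose bisphosphate, had differences of 1.73 ± 0.18 and 2.38 ± 0.21. Tpi1, triose phosphate isomerase, had 1260, 1340 and 1230 CPM in the Vhl/Hif2a knockout, against 159, 114 and 123 CPM in its control. It had 121, 124 and 122 CPM in the triple knockout, against 124, 157 and 119 CPM in its control, and the Vhl/Hif2a knockout lay above all 9 others. Pgam1, the phosphoglycerate mutase, had 1160, 1090 and 1140 CPM in the Vhl/Hif2a knockout, against 208, 190 and 173 CPM in its control. It had 197, 202 and 194 CPM in the triple knockout, against 226, 245 and 215 CPM in its control, with a difference of 2.78 ± 0.13. Gapdh, Eno1 and Pkm, which carry the pathway to pyruvate, had differences of 1.77, 2.60 and 2.09, and Gapdh is uncertain where reads could be shared with its many pseudogenes.

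Regulators of the pathway did not all follow. Pfkfb3, which makes the activator fructose 2,6-bisphosphate, had a difference of 1.12 ± 0.12, while Pfkfb4, an enzyme of the same family, had 203, 214 and 199 CPM in the Vhl/Hif2a knockout, 212, 218 and 219 in its control, 189, 199 and 203 in the triple knockout and 194, 255 and 206 in its control, and its value of 0.07 ± 0.12 was not called. Eno3, the muscle enolase, was called at 0.76 ± 0.21 (adjusted p = 0.033 in edgeR), and the call was lost in 10 of 12 fits that each left out 1 library. Eno2, the neuronal enolase, was low everywhere, at 0.0662, 0.186 and 0.0897 CPM in the Vhl/Hif2a knockout and 0.716, 0.502 and 0.279 CPM in its control, and its difference of -2.08 ± 0.77 was not called. Slc2a3, the GLUT3 transporter, had 1.98, 0.931 and 5.32 CPM in the Vhl/Hif2a knockout, against 0.767, 1.51 and 1.07 CPM in its control, which overlap.

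**Figure D2:**
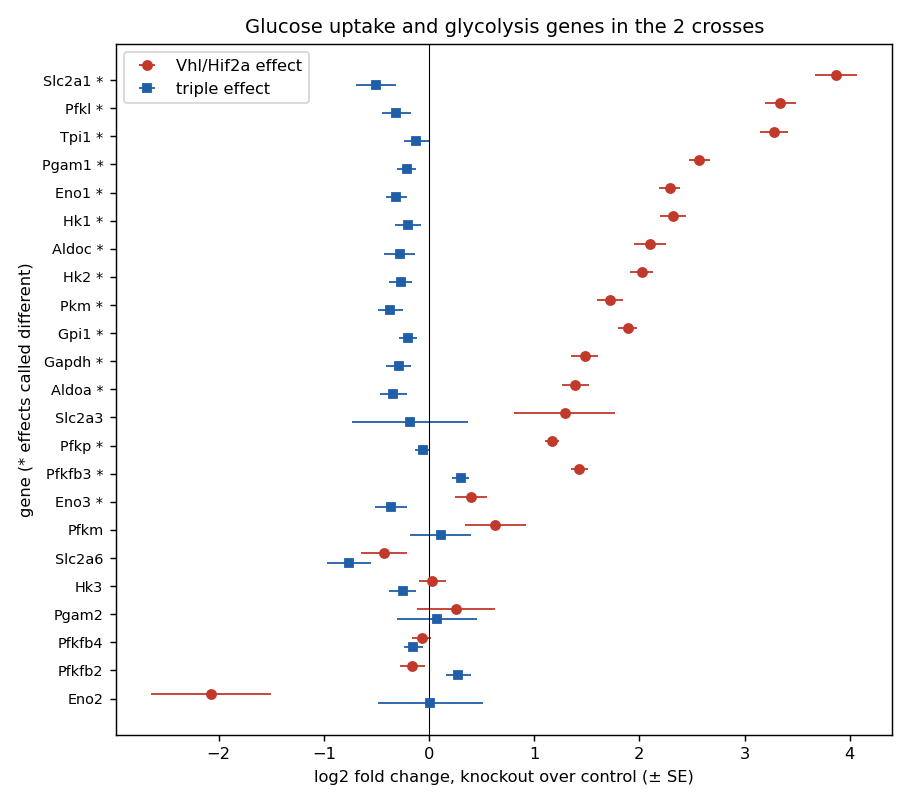
Log2 fold change of knockout over control, with its SE, for the 23 autosomal genes of glucose uptake and glycolysis, Vhl/Hif2a effect as red circles and triple effect as blue squares. The 15 genes marked with an asterisk were called different between the effects; from Slc2a1 down to Pfkfb3 the red circles lie above 1 and the blue squares lie near 0.

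The stretch around the start of a gene is shown for 5 genes, to set strong risers that hold the HIF core motif beside one that does not and beside Hif1a itself. Each window runs from 250 bases before to 50 bases after the start of the gene in RefSeq (GRCm38.p6), 5′ to 3′ on the gene's strand, and capitals mark ACGTG or GCGTG read on either strand, with CACGT or CACGC for the other strand, so that CACGTG counts as 2 overlapping matches.
Slc2a1, chr4:119108495-119108794, plus strand: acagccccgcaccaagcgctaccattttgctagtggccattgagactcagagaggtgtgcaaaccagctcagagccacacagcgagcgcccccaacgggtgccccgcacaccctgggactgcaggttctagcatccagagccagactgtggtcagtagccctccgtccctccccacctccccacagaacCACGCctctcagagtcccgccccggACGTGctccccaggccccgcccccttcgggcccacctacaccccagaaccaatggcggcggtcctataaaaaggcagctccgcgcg
Pgam1, chr19:41911621-41911920, plus strand: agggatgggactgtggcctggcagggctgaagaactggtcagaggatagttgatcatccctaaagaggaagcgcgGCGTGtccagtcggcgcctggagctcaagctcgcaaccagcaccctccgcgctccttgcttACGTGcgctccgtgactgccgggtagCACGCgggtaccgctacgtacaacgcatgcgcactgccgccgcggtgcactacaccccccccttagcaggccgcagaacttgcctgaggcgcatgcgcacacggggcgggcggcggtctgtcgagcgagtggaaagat
Tpi1, chr6:124814109-124814408, minus strand: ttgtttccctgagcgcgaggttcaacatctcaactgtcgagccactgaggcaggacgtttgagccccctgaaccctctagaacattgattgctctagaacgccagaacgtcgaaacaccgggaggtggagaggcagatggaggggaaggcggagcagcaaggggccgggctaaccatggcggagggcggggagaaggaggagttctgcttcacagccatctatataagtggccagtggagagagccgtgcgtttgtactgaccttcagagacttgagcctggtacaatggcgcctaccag
Bnip3, chr7:138909457-138909756, minus strand: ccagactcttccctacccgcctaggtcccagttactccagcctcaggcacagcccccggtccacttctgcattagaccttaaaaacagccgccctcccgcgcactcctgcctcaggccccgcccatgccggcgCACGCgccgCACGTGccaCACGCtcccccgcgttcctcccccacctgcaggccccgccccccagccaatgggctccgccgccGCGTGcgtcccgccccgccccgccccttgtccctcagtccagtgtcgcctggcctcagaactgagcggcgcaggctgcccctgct
Hif1a, chr12:73907617-73907916, plus strand: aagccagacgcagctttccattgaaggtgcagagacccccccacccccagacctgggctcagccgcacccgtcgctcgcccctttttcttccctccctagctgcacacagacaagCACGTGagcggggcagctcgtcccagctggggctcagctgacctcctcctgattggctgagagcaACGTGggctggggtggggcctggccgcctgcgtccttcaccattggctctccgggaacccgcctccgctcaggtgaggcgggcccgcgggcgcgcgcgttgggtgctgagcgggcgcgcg
The windows held 2 matches in Slc2a1, 3 in Pgam1, 0 in Tpi1, 5 in Bnip3 and 3 in Hif1a, whose RNA fell in the Vhl/Hif2a cross. Over all autosomal genes with a window, 62.9% of 9617 held at least 1 match. The share was 62.7% of 499 genes called higher, 53.8% of 303 called lower and 63.2% of 8815 not called, so the genes called higher were not set apart by these letters in this window. A match is a description of the sequence and not a site of binding.

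Pyruvate and lactate handling changed at its gates. Of 17 members tested, 5 were called higher and 1 lower (median difference 0.09). Ldha, lactate dehydrogenase A, had 1650, 1710 and 1510 CPM in the Vhl/Hif2a knockout, against 444, 385 and 404 CPM in its control. It had 434, 461 and 441 CPM in the triple knockout, against 436, 542 and 463 CPM in its control. Slc16a3, the lactate exporter MCT4, had 361, 415 and 366 CPM in the Vhl/Hif2a knockout, against 56.9, 45.2 and 40.2 CPM in its control, and 40.2, 45.9 and 45.2 CPM in the triple knockout, against 50.9, 89.1 and 51.4 CPM in its control. For both genes the Vhl/Hif2a knockout lay above all 9 others. Pdk1, a kinase that shuts pyruvate dehydrogenase, had 270, 277 and 279 CPM in the Vhl/Hif2a knockout, against 68.7, 52.5 and 55.4 CPM in its control, and 51.5, 57.8 and 61.9 CPM in the triple knockout, against 57.3, 49 and 62.9 CPM in its control. The differences were 2.09 ± 0.13 for Ldha, 3.55 ± 0.26 for Slc16a3 and 2.21 ± 0.15 for Pdk1. The kinase Pdk4 and the monocarboxylate transporter Slc16a1 had smaller ones, of 1.17 ± 0.26 and 0.66 ± 0.15. The lower gene was Me2, a malic enzyme of mitochondria, at -0.46 ± 0.11.

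Glycogen genes had 4 of 13 members called higher and 0 lower. Gys1, glycogen synthase, had 190, 213 and 205 CPM in the Vhl/Hif2a knockout, against 38.7, 26.1 and 27 CPM in its control. It had 26.8, 27.8 and 29.7 CPM in the triple knockout, against 27.7, 42.5 and 28.3 CPM in its control. Pgm1, which makes the glucose 1-phosphate that glycogen is built from, had a difference of 2.49 ± 0.12, Gbe1, the branching enzyme, of 1.57 ± 0.25, and Ppp1r3b, a subunit that brings a phosphatase to glycogen, of 1.39 ± 0.13. Of 43 oxidative phosphorylation genes, 1 was called higher and 1 lower (4.65%), and of 29 tricarboxylic acid cycle and fatty acid oxidation genes, 1 was called higher and 0 lower (3.45%), against 8.03% over all genes. In fits without 1 library these counts ran from 1 to 4 and from 0 to 2, both highest without triple control 3. The higher ones, Ndufa9 of complex I (0.39 ± 0.11) and Hadh of fatty acid oxidation (0.42 ± 0.12), each lost the call in 8 of 12 fits without 1 library. The lower one was Ndufa4, a cytochrome oxidase subunit, with 27.6, 30.1 and 26.6 CPM in the Vhl/Hif2a knockout, against 66.3, 79.1 and 79.2 CPM in its control. It had 83, 83.6 and 82.9 CPM in the triple knockout, against 84.8, 92 and 82 CPM in its control, and the difference was -1.36 ± 0.18 (adjusted p = 1.1e-04 in edgeR).

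Genes that sense oxygen and feed back on HIF had 11 of 20 members called higher and 1, Hif1a, lower. Egln1, the prolyl hydroxylase PHD2 that marks HIF-α for Vhl, had 287, 256 and 287 CPM in the Vhl/Hif2a knockout, against 62.9, 59.1 and 60.9 CPM in its control. It had 60.5, 61.5 and 58.1 CPM in the triple knockout, against 58.2, 81.2 and 62.1 CPM in its control, with a difference of 2.34 ± 0.14. Cited2, which competes with HIF for a coactivator, had a difference of 1.52 ± 0.22, and Bhlhe40, a repressor induced by hypoxia, of 0.88 ± 0.12. The histone demethylases Kdm4b, Kdm5b and Kdm3a had differences of 1.88 ± 0.19, 1.15 ± 0.17 and 0.93 ± 0.16. Ankrd37, an ankyrin-repeat protein known as a HIF-1 target, had 11.4, 12 and 9.8 CPM in the Vhl/Hif2a knockout, against 0.46, 0.193 and 0.232 CPM in its control. It had 0.0343, 0.0971 and 0.107 CPM in the triple knockout, against 0.197, 0.374 and 0.0382 CPM in its control. Hif3a, a further HIF-α gene, had 1213 counts in the 3 Vhl/Hif2a knockout libraries and 14 in their controls, 2 in the triple knockout and 4 in the triple control. Scaled for depth, its Vhl/Hif2a knockout level was 557 times that of the triple knockout (95% interval 154 to 4605, exact and for counting error only), and the call on its difference was lost in 7 of 12 fits without 1 library.

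Mitochondrial adaptation genes had 7 of 14 members called higher and 0 lower, with a median of 1.31. Bnip3, a mitophagy receptor, had 580, 553 and 556 CPM in the Vhl/Hif2a knockout, against 37.7, 26.2 and 21.7 CPM in its control. It had 19.8, 19.9 and 20.7 CPM in the triple knockout, against 19.4, 14.4 and 18.2 CPM in its control. The difference was 4.09 ± 0.24, and the controls differed as well (0.71, adjusted p = 0.032 in edgeR). Fam162a, a mitochondrial protein induced by hypoxia, had a difference of 2.32 ± 0.15, Higd1a, which associates with cytochrome oxidase, of 1.86 ± 0.18, and Hilpda, a lipid droplet protein that inhibits lipolysis, of 1.91 ± 0.26. Ak4, a mitochondrial adenylate kinase, had 113, 92.6 and 106 CPM in the Vhl/Hif2a knockout, against 4.04, 1.12 and 0.279 CPM in its control. It had 0.0686, 0.227 and 0.143 CPM in the triple knockout, against 0.0658, 0.25 and 0.229 CPM in its control, so its controls did not overlap either. The call on Ak4 was lost without triple control 2 (adjusted p = 0.079 in edgeR) and without triple control 3 (0.055).

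**Figure D3:**
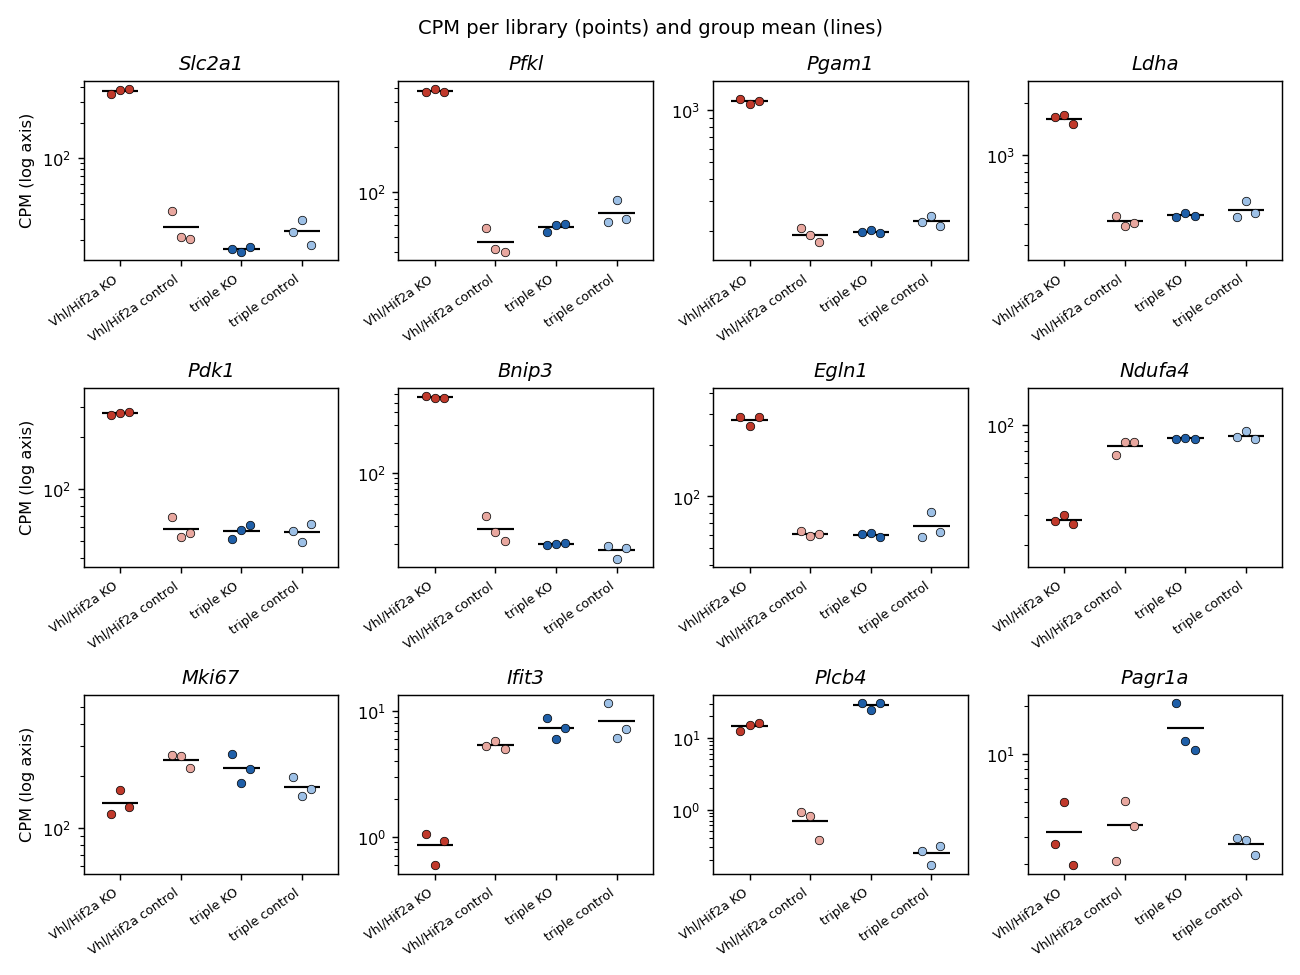
CPM on a log axis for 12 genes, with a point for each library and a line at the mean of each group of 3. The Vhl/Hif2a knockout stands above the rest for the first 7 genes and below it for Ndufa4 and Ifit3, while for Mki67 it overlaps the triple control; Plcb4 is high in both knockouts and Pagr1a in the triple knockout.

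Other hypoxia genes had 15 of 25 members called higher and 0 lower, with a median of 1.14. Ndrg1, a stress-response gene, had 52, 42.3 and 53.5 CPM in the Vhl/Hif2a knockout, against 4.8, 5.98 and 8.18 CPM in its control. It had 0.549, 0.874 and 0.785 CPM in the triple knockout, against 0.855, 0.832 and 0.955 CPM in its control. The controls of Ndrg1 differed by nearly as much as its effects did, by 2.84 (adjusted p = 2.5e-06 in edgeR) beside a difference of 3.22 ± 0.35. Nrn1, a neuritin gene, had a difference of 3.95 ± 0.32, Rcor2, a corepressor, of 2.93 ± 0.32, Narf of 2.46 ± 0.17, Gpr35, a G-protein-coupled receptor, of 2.32 ± 0.37, Galk1, galactokinase, of 2.07 ± 0.28, and Selenbp1, a selenium-binding protein, of 2.03 ± 0.16. Ddit4, a brake on mTOR, had a difference of 2.98 ± 0.74, and its call was lost without triple control 2 (adjusted p = 0.064 in edgeR).

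Secreted and angiogenic factors had 2 of 15 members called higher and 0 lower (13.3%, against 8.03% over all genes). This was 3 called without triple control 2, 5 without triple control 3 and 4 without Vhl/Hif2a control 1. DESeq2 called 7 of the 15 higher, and 8 reached an unadjusted p under 0.05 in edgeR. Mif, a secreted cytokine with tautomerase activity, had 352, 362 and 332 CPM in the Vhl/Hif2a knockout, against 35.5, 26.6 and 27 CPM in its control, and 32.3, 27.4 and 28.8 CPM in the triple knockout, against 31.9, 63.4 and 28.4 CPM in its control. The difference for Mif was 4.04 ± 0.33.

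Enzymes that modify collagen had 4 of 13 members called higher and 1 lower, or 9 called without triple control 3. P4ha1, a subunit of collagen prolyl hydroxylase, had 382, 286 and 390 CPM in the Vhl/Hif2a knockout, against 86.1, 88.4 and 104 CPM in its control. It had 79.6, 67.1 and 71.9 CPM in the triple knockout, against 77.3, 57 and 70 CPM in its control. The Vhl/Hif2a knockout lay above all 9 others, and its control lay above the 6 triple libraries. Plod2 and Plod1, the lysyl hydroxylases, had differences of 4.23 ± 0.72 and 1.44 ± 0.13, and Ero1l, an oxidase of the endoplasmic reticulum, of 1.13 ± 0.16. P3h2, a prolyl hydroxylase of collagen, was the lower one, at -3.03 ± 0.86, and its call was lost in 10 of 12 fits without 1 library.

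A further group of hypoxia genes rose in the Vhl/Hif2a knockout, was close to 0 in both triple groups, and did not pass the test of the difference. Vegfa, the vascular growth factor, had 85.7, 60.5 and 86.5 CPM in the Vhl/Hif2a knockout, against 2.15, 0.849 and 0.0929 CPM in its control. It had 0.137, 0.227 and 0.143 CPM in the triple knockout, against 0.0987, 0.208 and 0 CPM in its control, and the difference of 5.52 ± 1.75 missed the threshold (adjusted p = 0.063 in edgeR). Egln3, the prolyl hydroxylase PHD3, had 325, 289 and 335 CPM in the Vhl/Hif2a knockout, against 11.5, 2.47 and 0.465 CPM in its control, and 0.206, 0.162 and 0.428 CPM in the triple knockout, against 0.724, 0.374 and 0.191 CPM in its control. Ndufa4l2, a paralog of Ndufa4, had 153, 138 and 158 CPM in the Vhl/Hif2a knockout, against 5.26, 1.31 and 0.232 CPM in its control, and 0.103, 0 and 0.0714 CPM in the triple knockout, against 0.0987, 0.0416 and 0.0382 CPM in its control. DESeq2 called all 3 (adjusted p = 0.003 for Vegfa, 0.0026 for Egln3 and 0.0058 for Ndufa4l2). In all 3 genes the first Vhl/Hif2a control was the highest of its group. That library was the highest control for 34 of the 57 genes (59.6%) called higher by more than 8-fold, against 37.9% of all 12471 genes. The part of that library in these results was not tested beyond leaving it out, which gave 855 calls, 770 of them among the 1001.

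Lipid handling genes had 9 of 32 members called higher and 0 lower. Fabp4, a fatty acid carrier of alveolar macrophages, had 357, 357 and 350 CPM in the Vhl/Hif2a knockout, against 173, 120 and 103 CPM in its control. It had 158, 137 and 147 CPM in the triple knockout, against 135, 123 and 130 CPM in its control. Apoe, the lipoprotein of cholesterol export, had 88.7, 119 and 131 CPM in the Vhl/Hif2a knockout, against 37.4, 33 and 32.5 CPM in its control, and 33.6, 20.2 and 20.7 CPM in the triple knockout, against 20.9, 35.2 and 20.3 CPM in its control. For both genes the Vhl/Hif2a knockout lay above all 9 other libraries. Plin4, a droplet coat protein, had a difference of 2.55 ± 0.55 beside controls that differed by 2.31. Fads1, the delta-5 desaturase, went the other way, with 2.58, 1.99 and 4.16 CPM in the Vhl/Hif2a knockout, against 20.8, 15.7 and 18.4 CPM in its control, and 17.1, 13 and 13.1 CPM in the triple knockout, against 16.8, 17.3 and 14.4 CPM in its control. It was the 1 member called of 17 fatty acid synthesis genes, and 3 were called without triple control 2, without triple control 3 or without Vhl/Hif2a control 1. Of 23 cholesterol genes 0 were called in the difference by edgeR (7 at an unadjusted p under 0.05) and 1 by DESeq2, while 8 fell in the Vhl/Hif2a effect alone. Without triple control 1, edgeR called 5 of them.

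Mitosis genes fell in the Vhl/Hif2a cross relative to the triple cross. Of 30 members tested, 16 were called lower and 0 higher, with a median of -0.59. Mki67, the Ki-67 proliferation antigen, had 120, 166 and 133 CPM in the Vhl/Hif2a knockout, against 264, 260 and 223 CPM in its control. It had 268, 181 and 220 CPM in the triple knockout, against 198, 153 and 168 CPM in its control. The Vhl/Hif2a knockout lay below its own control, while it overlapped the triple control, and the difference was -1.20 ± 0.25. Top2a, topoisomerase II, had 98.2, 90.2 and 102 CPM in the Vhl/Hif2a knockout, against 157, 165 and 165 CPM in its control, and 166, 143 and 145 CPM in the triple knockout, against 147, 91.8 and 152 CPM in its control. The low triple control in both genes was triple control 2, and without it 19 of the 30 were called lower. The cyclin Ccnb1 and the kinases Plk1 and Cdk1 had differences of -0.89, -0.60 and -0.50. Summed over the 30 genes the level was 968 to 993 CPM in the Vhl/Hif2a knockout, 1380 to 1440 in its control, 1310 to 1450 in the triple knockout and 1050 to 1360 in its control. DNA replication genes had 4 of 34 members called lower and 0 higher (11.8%, against 8.03% over all genes). Among them were Rrm2, a ribonucleotide reductase subunit (-0.64 ± 0.14), and Mcm10, a replication factor (-0.72 ± 0.16). That count was 6 without triple control 2, 7 without triple control 1 or without Vhl/Hif2a control 2 and 9 without Vhl/Hif2a knockout 2.

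Interferon-stimulated genes had 12 of 44 members called lower and 0 higher, with a median of -0.50. Ifit3, an antiviral interferon-induced gene, had 1.06, 0.59 and 0.927 CPM in the Vhl/Hif2a knockout, against 5.32, 5.83 and 4.97 CPM in its control. It had 8.82, 6.02 and 7.32 CPM in the triple knockout, against 11.7, 6.16 and 7.29 CPM in its control. Gbp3, a guanylate-binding protein, had 1.49, 1.4 and 1.67 CPM in the Vhl/Hif2a knockout, against 7.1, 6.87 and 7.3 CPM in its control, and 9.57, 7.29 and 7.85 CPM in the triple knockout, against 8.92, 6.07 and 6.22 CPM in its control. Cxcl10, a chemokine for T cells, and Ifit1 had differences of -2.48 ± 0.47 and -2.07 ± 0.42. In all 12 called genes the Vhl/Hif2a knockout lay below the 9 other libraries. It did so in 9 of the 16 called mitosis genes and 3 of the 4 called DNA replication genes. The calls rest on these same libraries, so the separation is not added support. The interferon count was 19 without triple control 1, 11 without triple control 2, 6 without triple knockout 1 and 7 without Vhl/Hif2a knockout 1. Class I presentation had 3 of 21 members called lower and 0 higher (14.3%, against 8.03% over all genes). They were Nlrc5, the transactivator of class I genes, with -2.38 ± 0.27, and H2-Q6 and H2-Q7, with -1.73 ± 0.26 and -1.53 ± 0.29. H2-Q6 and H2-Q7 are nonclassical class I genes that are near-identical copies and therefore uncertain. The class I count was 4 without triple control 2 and 5 without triple control 1 or 3.

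**Figure D4:**
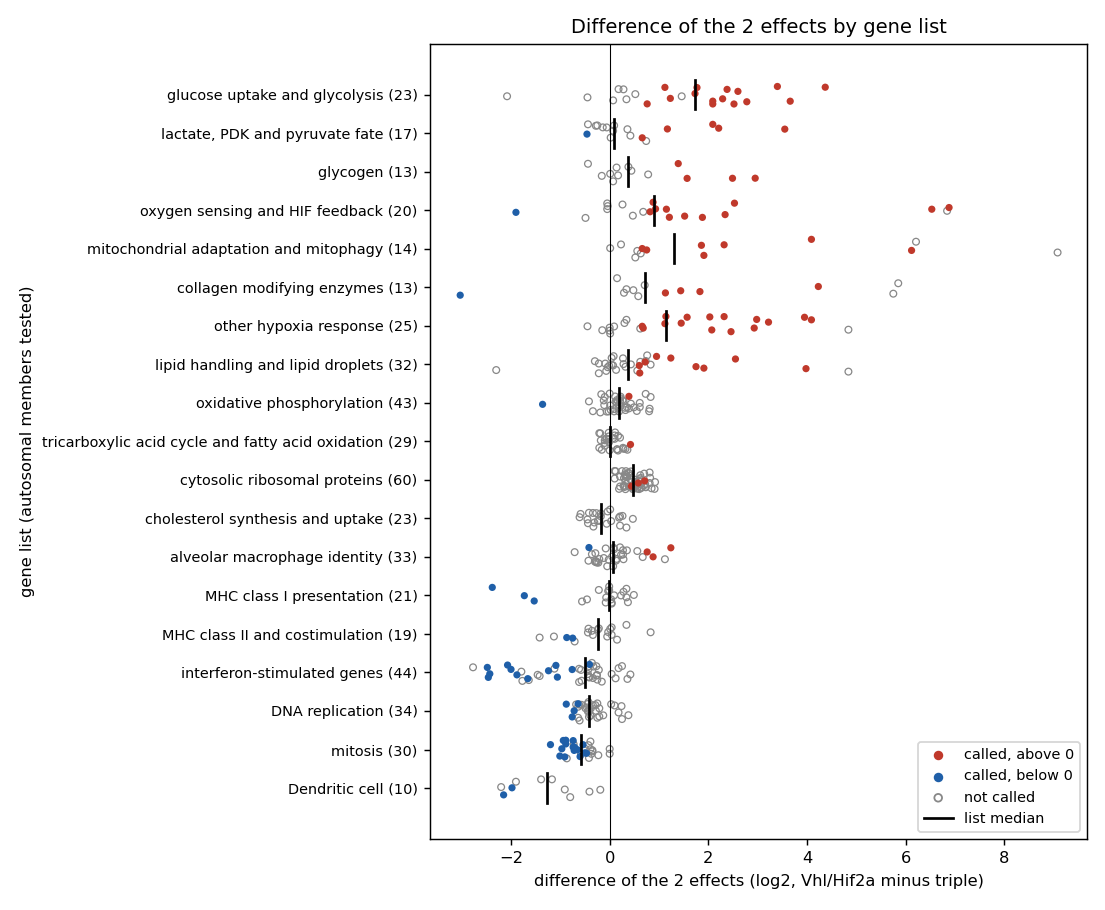
Each point is a list member, placed by its log2 difference of effects (Vhl/Hif2a minus triple), for 19 gene lists. Filled points passed the test, red above 0 and blue below 0, open points did not, and black bars mark medians; the glycolysis median stands at 1.73 and the mitosis median at -0.59.

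Markers of other cell types and genes of macrophage identity were also counted, against the 8.03% called over all genes. Dendritic cell markers had 2 of 10 members called lower, Ccr7 and Flt3, a homing receptor and a growth factor receptor, or 5 without Vhl/Hif2a control 3. All 10 markers had a negative difference, with a median of -1.28, and 6 reached an unadjusted p under 0.05 in edgeR. Their summed level was 37.4 to 40.9 CPM in the Vhl/Hif2a knockout, 47 to 102 in its control, 42.5 to 47.8 in the triple knockout and 39.9 to 73.3 in its control. The part of dendritic cells in the results above, among them those on interferon and class I genes, was not tested, and in bulk RNA fewer cells of a type and less RNA per cell cannot be told apart. Neutrophil markers had 1 of 6 called higher, S100a8 (1.30 ± 0.27), and 2 lower, Cxcr2 (-2.13 ± 0.22) and Csf3r (-1.14 ± 0.16), while Ly6g was at 0 counts in every library. Interstitial macrophage and monocyte markers had 0 of 8 called by edgeR (1 at an unadjusted p under 0.05) and 0 by DESeq2, or 1 by edgeR without triple control 2. A longer list of 15 such genes had 2 called higher and 1 lower (20%), both by edgeR and by DESeq2. Epithelial markers had 0 of 4 called in the difference, while 1 differed between the controls. Their summed level was 293 to 348 CPM in the Vhl/Hif2a knockout and 256 to 401 in its control. It was 165 to 187 CPM in the triple knockout and 208 to 247 in its control. Of 33 alveolar macrophage identity genes, 3 were called higher (Fabp4, Bhlhe40 and Krt19) and 1 lower (Krt79), with a median of 0.07, or 7 in all without triple control 3 and 2 without Vhl/Hif2a control 2 or Vhl/Hif2a knockout 1. The call was lost in 6 of 12 fits without 1 library for Krt19 and in 4 of 12 for Krt79. Cytosolic ribosomal protein genes had a positive difference in 60 of 60 members, with a median of 0.47, or 0.32 without triple control 2. An unadjusted p under 0.05 in edgeR was reached by 50 of 60, against 3092 of all 12471 genes, and 3 of 60 were called. That call count was 17 without triple control 1 or 3, and 0 without any other single library except Vhl/Hif2a control 3. Complement and coagulation genes had 4 of 20 members called higher and 1 lower (25%). Among the higher were C4b, a complement component (4.01 ± 0.74), Thbd, thrombomodulin (1.27 ± 0.28), and F10, factor X (0.84 ± 0.12). The lower one was C3, the central complement protein, with 123, 165 and 108 CPM in the Vhl/Hif2a knockout, against 479, 376 and 409 CPM in its control. It had 417, 374 and 395 CPM in the triple knockout, against 403, 428 and 353 CPM in its control.

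Called genes with a mean of at least 1 CPM and separate knockouts were ranked by size, leaving out predicted models and pseudogenes. The 14 highest differences went to Hif3a, Hspa12b, Ankrd37, Ppp1r3g, Apbb1, Tnfsf9, Ak4, Vmn2r26, Sdc4, Rgs11, Nynrin, Slc2a1, Abcb4 and Iqcg, at 6.88 down to 4.35. Apart from Slc2a1, all had under 2 CPM in every triple library, where fitted folds depend on the few counts. Hspa12b, a heat-shock protein relative, had 6.35, 6.52 and 6.61 CPM in the Vhl/Hif2a knockout, against 0.46, 0.502 and 0.279 CPM in its control. It had 0.0343, 0.0324 and 0.0714 CPM in the triple knockout, against 0.197, 0.583 and 0.153 CPM in its control, so the triple knockout was the lowest group. Ppp1r3g, a subunit that brings a phosphatase to glycogen, had 7.67, 5.12 and 7.98 CPM in the Vhl/Hif2a knockout and at most 0.307 CPM in any other library. Tnfsf9, the ligand of 4-1BB, had 5.89, 4.13 and 4.87 CPM in the Vhl/Hif2a knockout and at most 0.291 CPM elsewhere, and Sdc4, a syndecan, had 9.53, 7.79 and 8.58 CPM there and at most 0.664 CPM elsewhere. Rgs11, a regulator of G-protein signalling, had controls that differed by 2.13. The call on Abcb4, a phospholipid transporter, was lost without triple control 3 (adjusted p = 0.082 in edgeR).

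The 14 lowest went to Fam167a, Dclk3, Enpp5, Spsb1, Il12b, Marchf4, Unc5a, Scamp5, Nat8l, Epor, Igflr1, Cd300ld3, Pagr1a and Aoah, at -3.57 to -2.57. Fam167a had 0.728, 0.931 and 0.957 CPM in the Vhl/Hif2a knockout, against 10.1, 7.8 and 9.39 CPM in its control. It had 7.2, 7.45 and 5.18 CPM in the triple knockout, against 5.17, 7.82 and 4.39 CPM in its control, and the Vhl/Hif2a knockout lay below all 9 others. Spsb1, a SOCS-box protein that targets inducible nitric oxide synthase, had 1.42, 1.27 and 2.42 CPM in the Vhl/Hif2a knockout, against 6.85, 14.9 and 12.3 CPM in its control, and 10.1, 9.94 and 10.1 CPM in the triple knockout, against 8, 9.61 and 7.45 CPM in its control. Il12b, the p40 subunit of IL-12 and IL-23, had a difference of -2.90 ± 0.63, Epor, the erythropoietin receptor, of -2.72 ± 0.55, and Aoah, which inactivates endotoxin, of -2.57 ± 0.44. Igflr1, a receptor of the TNF receptor type, had 3.97, 3.1 and 5.11 CPM in the Vhl/Hif2a knockout, against 15.2, 42.4 and 50.3 CPM in its control, and 22.4, 27.4 and 21.4 CPM in the triple knockout, against 24.1, 42.6 and 31.3 CPM in its control. Dclk3, a doublecortin-like kinase, was already lower in the Vhl/Hif2a control than in the triple control (-1.80, adjusted p = 0.015 in edgeR), and the call on Enpp5 was lost without triple knockout 1 (0.056).

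The 5 genes called in the triple effect were Pagr1a, Itgam, Itgax and Plcb4, which rose, and Vhl, which fell. Plcb4, a phospholipase C that signals downstream of G proteins (chromosome 2), rose in both crosses. It had 12.6, 15.1 and 16.3 CPM in the Vhl/Hif2a knockout, against 0.92, 0.811 and 0.372 CPM in its control. It had 30.5, 24.8 and 30.8 CPM in the triple knockout, against 0.263, 0.166 and 0.305 CPM in its control, and the triple knockout lay above every Vhl/Hif2a knockout library. Its difference was -2.45 ± 0.56 (adjusted p = 0.011 in edgeR).

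A further 3 of the 5 lie close together on chromosome 7, at and near Itgax, whose promoter names the Cre line. Itgax (128129547 to 128150657, GRCm38), the gene for CD11c, had 1990, 2240 and 2200 CPM in the Vhl/Hif2a knockout, against 1540, 1580 and 1590 CPM in its control. It had 2100, 2210 and 2130 CPM in the triple knockout, against 1350, 1370 and 1370 CPM in its control, and the effects were not called different (-0.21 ± 0.09, adjusted p = 0.18 in edgeR). Itgam, the gene for CD11b, starts 0.0669 Mb from Itgax and had 37.5, 59.9 and 35.1 CPM in the Vhl/Hif2a knockout, against 8.33, 6.1 and 4.6 CPM in its control. It had 14.9, 13.1 and 13.9 CPM in the triple knockout, against 6.45, 5.7 and 5.46 CPM in its control, with a difference of 1.55 ± 0.29. Itgad, the gene for CD11d, starts 0.0248 Mb from Itgax and had 203, 230 and 203 CPM in the Vhl/Hif2a knockout, against 20.6, 36.6 and 42.8 CPM in its control, and 17.4, 21.2 and 25.1 CPM in the triple knockout, against 13.7, 12.6 and 16.9 CPM in its control. The controls of Itgad differed by 1.21 beside a difference of 2.11 ± 0.28. Itgal, which starts 0.833 Mb from Itgax, had a difference of -0.48, and its call was lost in 3 of 12 fits without 1 library. Of 12 genes listed for this locus, Pagr1a not among them, 2 were called higher, 1 lower and 9 were not called. Pagr1a, a partner of a histone methyltransferase complex, starts 1.11 Mb from Itgax and had 2.68, 5 and 1.97 CPM in the Vhl/Hif2a knockout, against 2.1, 5.02 and 3.49 CPM in its control, and 21.1, 12.1 and 10.6 CPM in the triple knockout, against 2.96, 2.87 and 2.29 CPM in its control. The triple knockout lay above all 9 others, with a difference of -2.58 ± 0.56. Without triple control 2, the triple effect was called for 3 genes, Itgax, Vhl and Plcb4.

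Some genes called in the difference of effects had controls that were called different and knockouts that were not. Predicted models and pseudogenes aside, there were 45 such genes. The 6 with the highest differences in size were Gnb4, Klf2, L3hypdh, Rassf8, Gabbr1 and Smox. Klf2, a transcription factor of quiescence, had 25.7, 16.9 and 20.2 CPM in the Vhl/Hif2a knockout, against 9.66, 8.84 and 8.32 CPM in its control. It had 10.7, 14 and 14.6 CPM in the triple knockout, against 14.4, 37.2 and 13.6 CPM in its control, where triple control 2 was the high library. The Klf2 difference was 1.95 ± 0.47, or 1.32 without that library (adjusted p = 0.022 in edgeR), and Smox was called without it as well (adjusted p = 0.0049). Klf2 is also in a list of 19 dissociation and immediate early genes, of which 2 were called higher and 0 lower (10.5%, against 8.03% over all genes). In that list 18 differences were positive, with a median of 0.83, or 0.41 without triple control 2. The part of cell handling was not tested. Gabbr1, a subunit of the GABA-B receptor, had 11, 12.7 and 7.23 CPM in the Vhl/Hif2a knockout, against 22.4, 36.2 and 25.6 CPM in its control, and 13.9, 16.6 and 14.1 CPM in the triple knockout, against 14.8, 10.4 and 17.4 CPM in its control. The call on L3hypdh was lost in 6 of 12 fits without 1 library.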

How the data were processed

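RNA from CD11c-enriched alveolar lavage cells was sequenced as poly(A)-selected, strand-marking libraries, per the labels' protocols. FastQC, cutadapt, STAR and the GRCm38 build are named in the submitters' processing notes; of versions, counting program, gene models and strandedness of counting, nothing is stated in the labels. The authors deposited 1 table of 32789 genes in 18 libraries, of which 89.25% of values are whole numbers, so the deposited values were treated like estimated counts and rounded, where the planned design had assumed raw counts. Genes passing edgeR's filterByExpr (12900) were fitted with TMM scaling, 1 coefficient per group over all 18 libraries, and edgeR 4.0.16's quasi-likelihood test in R 4.3.3, with Benjamini-Hochberg adjustment over all 12900 genes and calls at an adjusted p under 0.05. The SE is the log2 value divided by the root of its F statistic. CPM are TMM-scaled and not per length, so levels of different genes were not compared. The fit was tested on simulated data.

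Genes were named by rule. They were the 3 targeted genes, the 14 highest and 14 lowest called differences with a mean of at least 1 CPM and knockouts that did not overlap, and genes called in both effects. The others were genes called in the difference whose controls and not knockouts were called, and list members as examples. Rankings left out sex-linked genes, predicted models, pseudogenes, and immunoglobulin and T cell receptor segments. Members and the 42 lists were chosen with earlier results of these data known. Replicate numbers did not pair the libraries, as their correlations ran from -0.28 to 0.22. Alternatives were other scalings, no filter, the 12 libraries alone, robust estimation, replicate blocks, DESeq2 1.42.0 and leaving out each library. Promoter windows are RefSeq's (GRCm38.p6). For 1 called member of the lists, no value is reported here.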

Additional observations from a re-analysis of the deposited data

Results flagged for a closer look

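The Vhl/Hif2a and triple effects differed for 1001 autosomal genes by the test of the difference itself, and for 30 genes of the sex chromosomes, which stand outside the comparisons because the crosses differ in sex-linked RNA. Hif1a differed by -1.90 and Epas1 by 1.21 on the log2 scale, both in RNA of genes that the labels name as targets. Plcb4 differed by -2.45 with a rise in both crosses, Pagr1a by -2.58 with a rise in the triple cross, and Itgam by 1.55 with a rise in both.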

How the results depend on the processing

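The count of genes whose effects differed was 998 with DESeq2's size factors, 1006 with upper quartile scaling, 1004 with no scaling (582 higher and 422 lower), 915 with no filter, 672 with the 12 libraries alone, 1002 with robust estimation and 1466 with DESeq2, which held 999 of the 1001. Leaving out 1 library gave 676 to 1367. The paired fits, with the replicate number as a block, gave 879 (number shared by all groups) and 717 (number within each cross), and the block within each cross was not run for the knockouts or controls compared directly. The triple effect was called for 3 genes with the 12 libraries alone and 11 with DESeq2, and the controls differed for 141 and 945 under the same changes. Leaving out 1 library gave 1192 to 2799 calls for the Vhl/Hif2a effect, 3 to 5 for the triple effect, 1674 to 3622 for the knockouts compared directly, 128 to 829 for the controls, 4 to 9 for the collagen list (9 with DESeq2) and 6 to 19 for the interferon list. The uncalled Pfkfb4 value of 0.07 turned to -0.06 without triple control 2 and lay between -0.06 and 0.15 over the fits without 1 library. The cause of these changes was not tested. With 3 libraries per group, genes near 0 counts in the triple cross are the least certain.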
